A study of Mus musculus with 8 samples.

Results

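The genes described here are 37 genes of the cilium. They encode the machinery that carries cargo along the axoneme, the factors that switch ciliary genes on, and the axonemal parts that make a cilium beat. They were chosen by name from a list, and all 37 were found among the 20377 gene symbols of the deposited tables. Dnah5, Dnah9 and Dnah11 stood there under the older symbols Dnahc5, Dnahc9 and Dnahc11 and were matched by RefSeq accession, while the other 34 matched by symbol. RNA sequencing had been done on liver cells of wild-type C57BL/6 mice, sorted by flow cytometry as MIC1-1C3+ CD26- non-blood cells of the non-parenchymal fraction and labelled as liver ducts. That gate was divided by surface ST14, the membrane protease matriptase, into ST14high cells (4 libraries) and ST14low cells (4 libraries). The labels give neither the age of the mice, nor the number of animals, nor whether libraries came from separate animals, so the p-values below measure only the spread between these libraries, which may be technical.

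The cilium is built by intraflagellar transport, in which protein trains carry cargo outward with kinesin-2 and back with dynein. IFT-B subunits form the part of the train tied to outward movement and IFT-A subunits the part tied to return, and the BBSome, named after Bardet-Biedl syndrome, moves membrane proteins in and out. Cholangiocytes, the epithelial cells of bile ducts, are known for a solitary primary cilium that projects into the duct lumen and senses bile flow. A motile cilium additionally carries dynein arms, radial spokes and a central pair, and its genes are switched on by the forkhead factor FOXJ1 together with RFX factors, which also act on genes shared by both kinds of cilium.

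RFX factors bind the X-box, a palindrome whose half-site is often written GTTGCCA, so promoters of the ciliary genes were searched for it (both strands; 250 bases before to 50 bases after the start, RefSeq sequences, build GRCm38.p6). Of the 30 genes with a promoter entry, 5 held GTTGCCA or its reverse complement (16.7%), against 5.03% of the 27025 genes in the same set. The longer form GTTGCCATG was in 0 of the 30 genes and in 0.877% of all genes. The forkhead motif TGTTTAC was in 0 of the 30 and in 4.05% of all genes. The 5 matches are printed because they are the ciliary promoters that carry the half-site. Each is read 5′ to 3′ on the strand of the gene, with the half-site in capitals and 10 bases on either side.
Ift27 (chr15:78174074-78174100, minus strand): gttgatgatgGTTGCCAggagcctgtt
Ift88 (chr14:57424081-57424107, plus strand): gagtcgcgccTGGCAACggctgggcgt
Bbs1 (chr19:4906610-4906636, minus strand): ggctgagctgGTTGCCAaggcgacgcc
Nphp4 (chr4:152478133-152478159, plus strand): gtgcatcccgGTTGCCAgctgatgttg
Tekt1 (chr11:72361881-72361907, minus strand): cgtccgtccgGTTGCCAtagagaccgc
In Ift88 the capitals show the reverse complement. The match began 15 bases before the annotated start in Tekt1 and 9 bases before it in Ift27. In Nphp4 and Bbs1 it began at base 2 after the start, and in Ift88 at base 21. Nphp4 and Tekt1 had several annotated starts, and the half-site lay at a single one of each. These are matches of letters and not measured sites. The promoters of Ift122, Ift80, Ift81, Foxj1, Rsph1, Rsph4a and Spag6 were not analysed here.

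Counts over the kept transcripts totalled 17418202 to 42769988 per library in ST14high and 6398307 to 31011678 in ST14low, with the smallest total in ST14low replicate 3. ST14high replicate 1 stood apart in a principal component analysis, with a first coordinate of -107 while the other 7 ranged from -11.5 to 55.5. Both populations carried duct markers. The summed CPM (counts per 1000000 reads of the library, whose size was scaled by TMM factors) of 16 biliary markers was 19644.0 to 30190.3 in ST14high and 23527.5 to 31619.7 in ST14low. St14 itself was at 305.1 ± 32.5 CPM in ST14high, against 329.9 ± 49.0 CPM in ST14low (mean ± SD, n = 4 each), with a log2 fold change of -0.11 and an interval at 95% of -0.44 to 0.21, so the transcript was not seen to follow the surface label. Markers of other cells were unequal. Pancreatic acinar markers, of which 4 of 15 passed the low-count filter and 1 was at 0, had sums of 10883.6 and 1601.4 CPM in ST14high replicates 1 and 2, with 122.1 CPM the highest sum among the other 6 libraries. The 14 stellate cell, fibroblast and smooth muscle markers had sums from 729.3 to 3292.4 CPM in ST14high, against 319.5 to 662.4 CPM in ST14low, and the 9 mesothelial markers from 549.7 to 1388.9 CPM in ST14high, against 426.6 to 511.7 CPM in ST14low. The macrophage and dendritic cell markers had sums from 241.7 to 319.1 CPM in ST14high, against 326.2 to 832.5 CPM in ST14low. In a sorted bulk sample, fewer cells of a type and less RNA per cell cannot be told apart.

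The first question was which ciliary genes these duct cells carried, and at what level. Levels were compared between genes with the deposited RPKM, reads per kilobase of transcript scaled to library size. The 23 transport genes (IFT subunits, kinesins, BBSome, ARF-like GTPases, Tulp3 and Nphp4) had a median of 18.5 RPKM over the 8 libraries, and 15 of them lay above 13.35 RPKM, the median of the 13749 genes tested. The 10 genes of the motile axoneme had a median of 3.38 RPKM, and 0 of the 10 lay above that of all genes. Transport genes of the primary cilium were therefore measured at levels usual for these libraries, and axonemal genes of motile cilia at low levels. Across all 37 the median was 11.99 RPKM, and all 37 passed the low-count filter.

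The level of Foxj1, the forkhead factor known as the switch of motile cilium genes, was unlike that of the axonemal genes. Foxj1 was at 71.0 ± 27.7 RPKM in ST14high and 85.1 ± 8.10 RPKM in ST14low (mean ± SD, n = 4 each), ranking 949 of the 13749 genes tested by mean RPKM, above all axonemal genes listed. Only Arl3, a small GTPase that releases lipid-anchored cargo inside the cilium, was higher among the 37, at 99.4 ± 31.4 RPKM in ST14high and 93.9 ± 11.5 RPKM in ST14low and at rank 717. Ift20, an IFT-B subunit also found at the Golgi, followed with 47.6 ± 10.6 RPKM in ST14high and 49.5 ± 5.17 RPKM in ST14low. Means of the remaining genes ran down to 0.0975 RPKM for Dnah9, an outer arm dynein heavy chain with 216 counts over the 8 libraries. Tekt4, a tektin of the axonemal doublets, had 205 counts and a mean of 0.695 RPKM, and was at 0 counts in ST14low replicate 3, where 3 counts equal 0.463 CPM. Kif17, a homodimeric kinesin-2, was the lowest of the transport genes at 0.743 RPKM.

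**Figure D1:**
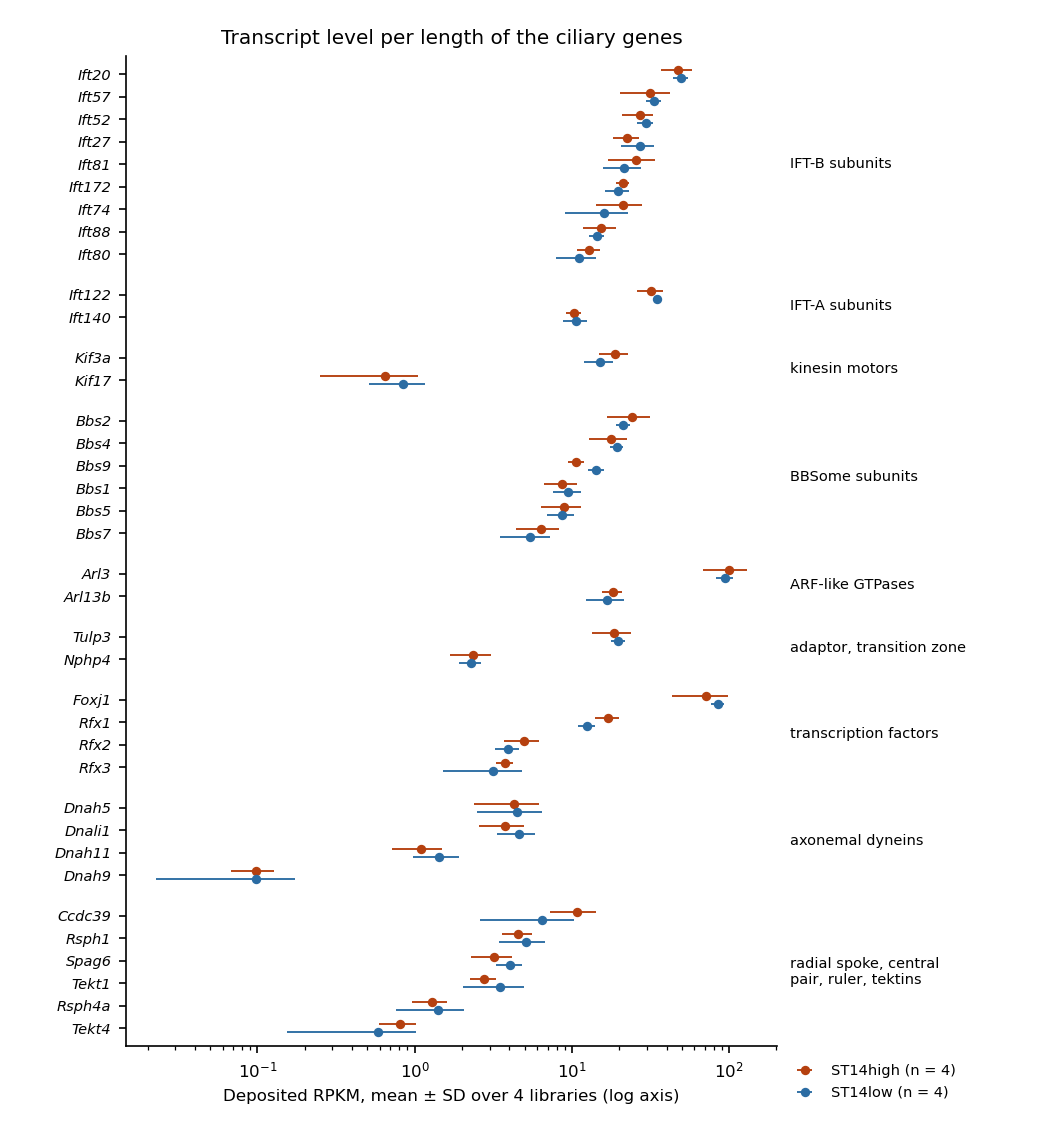
Deposited RPKM of the 37 ciliary genes (log axis; mean ± SD over the 4 libraries of each population), ordered by role and by level within a role. Arl3 and Foxj1 stand highest, at means of 96.7 and 78.1 RPKM over the 8 libraries, and the genes of the motile axoneme lie at the low end, from 0.0975 to 8.60 RPKM.

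The second question was whether the ciliary genes differed between ST14high and ST14low cells. In edgeR's quasi-likelihood test 0 of the 37 passed an adjusted p of 0.05 over all genes tested, where 0% of the 13749 genes passed. The smallest adjusted p in edgeR was 0.365 among the ciliary genes and 0.192 among all genes. At an unadjusted p under 0.05 there were 2 ciliary genes (5.41%), Rfx1 with higher values in ST14high and Bbs9 with lower values, beside 9.56% of all genes. DESeq2's Wald test called 0 of the 37 and 1.72% of the 13580 genes that received an adjusted p from it. Limma's voom test called 0 of the 37 and 0 of all genes. The 4 libraries of one population all lay above those of the other in the same pair of genes, Rfx1 and Bbs9 (5.41%), beside 6.42% of all genes. By none of the rules that called any gene did the share of ciliary genes exceed that of all genes.

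Log2 fold changes are ST14high over ST14low. Over the 37 genes the median was -0.01, with 18 above 0 and 19 below 0, and over all genes tested it was 0.00 (0.0023). Without ST14high replicate 1 the ciliary median was 0.13 and that of all genes -0.01, with 24 of the 37 above 0. The single genes ranged from -0.41 for Bbs9 to 0.77 for Ccdc39. By role, the median was 0.12 for the 9 IFT-B subunits, -0.06 for the 2 IFT-A subunits, 0.00 (0.0006) for the 2 kinesins, -0.02 for the 6 BBSome subunits, 0.12 for the 2 ARF-like GTPases, 0.01 for Tulp3 and Nphp4 together, 0.33 for the 4 transcription factors, -0.16 for the 4 axonemal dyneins and -0.12 for the other 6 axonemal genes. Without ST14high replicate 1 the IFT-A and BBSome medians were above 0, at 0.00 (0.0013) and 0.12, and the dynein median was -0.03.

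**Figure D2:**
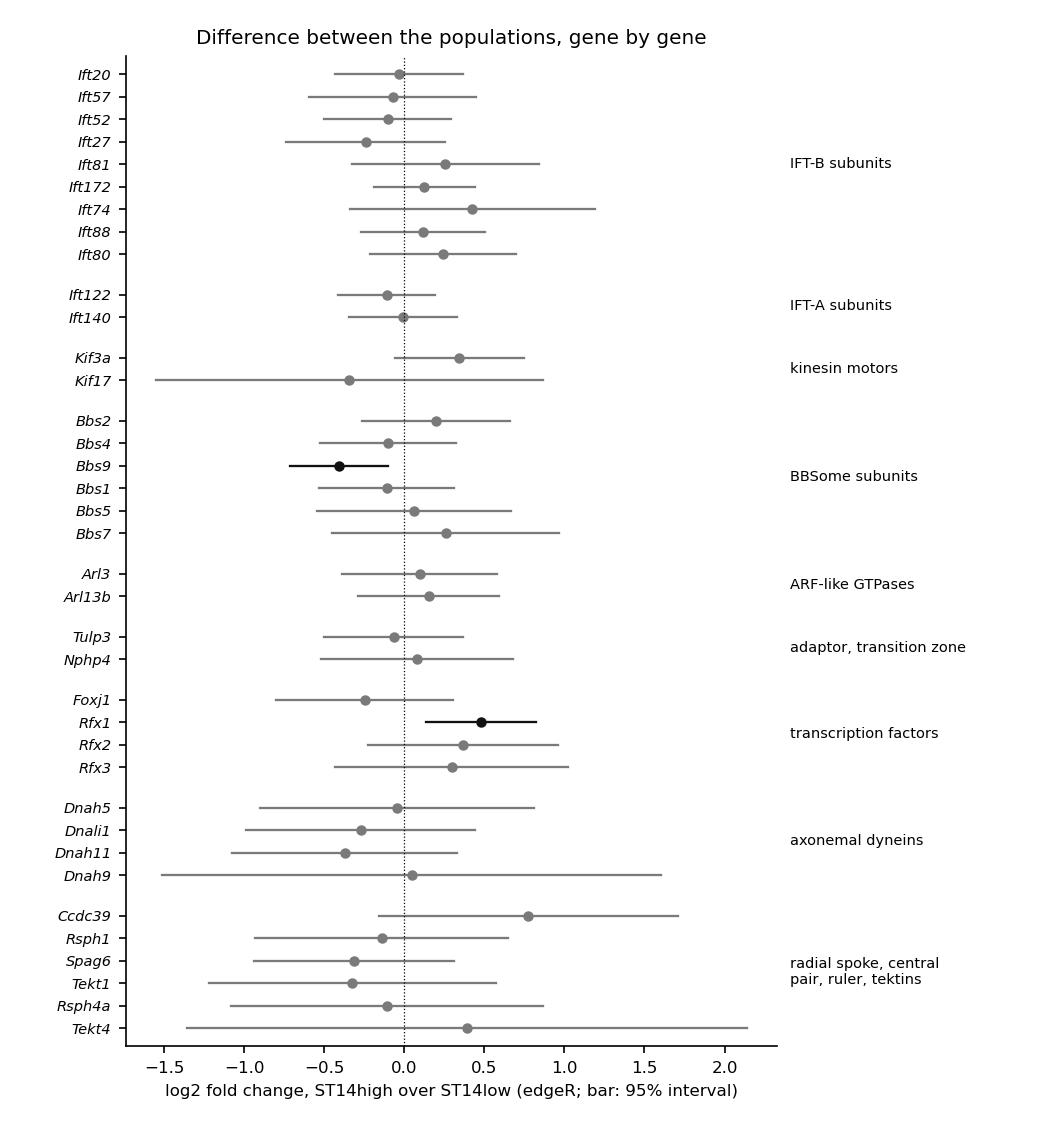
Log2 fold change of each ciliary gene, ST14high over ST14low, from edgeR, with its 95% interval. Black marks Rfx1 and Bbs9, in which the libraries of the populations do not overlap; apart from these 2 genes, the intervals of the genes drawn include 0.

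Among the transcription factors, Rfx1, a widely expressed RFX factor (NM_009055; mm9, chromosome 8, 86590735 to 86620891), had 51.1, 50.8, 68.0 and 64.5 CPM in ST14high replicates 1 to 4, against 41.2, 36.8, 42.1 and 47.9 CPM in ST14low replicates 1 to 4. Every ST14high library lay above every ST14low library, and the gap between the closest was small. Its log2 fold change was 0.48 (SE 0.15), a 1.40-fold ratio, with an edgeR p of 0.0108 before and 0.365 after adjustment, and 406 genes had a smaller p. It ranged from 0.38 to 0.55 when each library was left out in turn.

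Foxj1 (NM_008240; mm9, chromosome 11, 116192018 to 116196668) had 100.3, 200.9, 249.7 and 148.5 CPM in ST14high, against 191.1, 229.4, 189.3 and 220.7 CPM in ST14low. The ST14high libraries spread from the lowest to the highest of the 8 values and enclosed all those of ST14low. The log2 fold change was -0.25 (SE 0.25, edgeR adjusted p = 0.755; 95% interval -0.80 to 0.30), and it was -0.06 without ST14high replicate 1 and -0.48 without ST14high replicate 3. ST14high replicate 1 also held the highest sums of acinar and fibroblast markers, and their part in its low Foxj1 was not tested.

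Rfx2 and Rfx3 are the RFX factors best known from ciliated cells. Rfx2 had 9.94 to 19.0 CPM in ST14high, against 8.02 to 12.4 CPM in ST14low. Rfx3 had 27.3 to 36.9 CPM in ST14high, against 16.0, 14.7, 42.6 and 33.1 CPM in ST14low. Its ST14low libraries were split, with replicates 1 and 2 below all ST14high libraries and replicate 3 above them. The log2 fold changes were 0.37 (SE 0.27) for Rfx2 and 0.30 (SE 0.33) for Rfx3. All 3 RFX genes thus had a positive fold change and Foxj1 a negative one, and the adjusted p of each was at least 0.365 in edgeR.

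**Figure D3:**
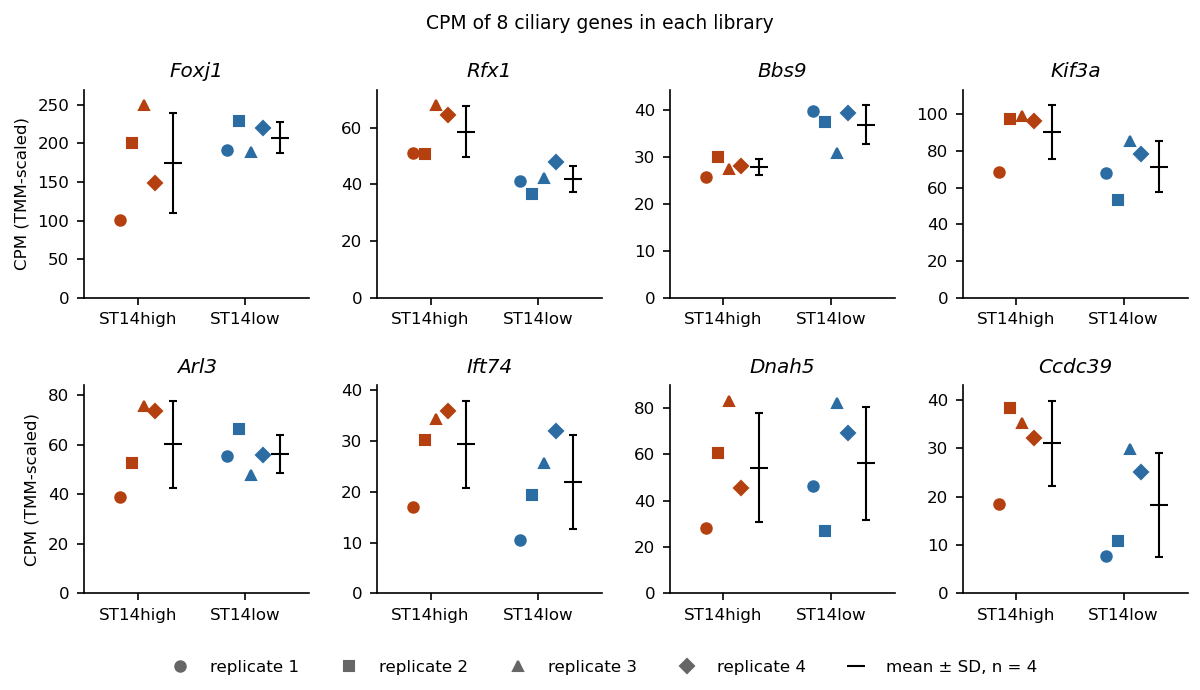
CPM on scaled library sizes of 8 ciliary genes in each library, by population and replicate, with the mean ± SD (n = 4). Rfx1 separates the populations upward and Bbs9 downward, by narrow gaps; in the other genes the values of ST14high and ST14low overlap.

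Among the IFT-B subunits, Ift20 (chromosome 11, 78349938 to 78354975, mm9, as for the positions that follow) had 24.5, 31.1, 34.2 and 22.2 CPM in ST14high, against 25.7, 33.6, 27.3 and 28.1 CPM in ST14low. The values of ST14low lay within the range of ST14high. The log2 fold change of -0.03 had an SE of 0.18 and a 95% interval from -0.43 to 0.37.

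Ift74, which binds tubulin cargo together with Ift81 (chromosome 4, 94281211 to 94359924), had 17.0, 30.2, 34.4 and 35.9 CPM in ST14high, against 10.5, 19.4, 25.8 and 32.1 CPM in ST14low. The lowest value was that of ST14low replicate 1, and the ranges overlapped. The log2 fold change of 0.43 had an SE of 0.34 (edgeR adjusted p = 0.700). With each library left out in turn it ran from 0.19 without ST14low replicate 1 to 0.67 without ST14low replicate 4. Its partner Ift81 had 33.8 to 71.9 CPM in ST14high, against 34.8 to 61.9 CPM in ST14low. In Ift81 the lowest library was ST14high replicate 1 and not ST14low replicate 1.

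The values of the populations overlapped in the other IFT-B subunits as well. Ift88, the subunit whose loss in mice gives polycystic kidneys and bile duct changes, had 24.2 to 38.1 CPM in ST14high, against 27.3 to 33.1 CPM in ST14low. Ift172 had 75.1 to 84.1 CPM in ST14high, against 56.6 to 85.0 CPM in ST14low. Ift52, Ift57, Ift80 and the GTPase Ift27, which acts in BBSome exit, had log2 fold changes from -0.24 (Ift27) to 0.24 (Ift80), with adjusted p from 0.712 to 0.938 in edgeR. Ift27 and Ift88, whose promoters hold the X-box half-site printed above, had fold changes of opposite sign, at -0.24 and 0.12, and Bbs1, Nphp4 and Tekt1 were at -0.11, 0.08 and -0.32.

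Of the IFT-A subunits, Ift122, a core subunit (chromosome 6, 115803546 to 115876717), had 75.7, 97.5, 107.3 and 107.2 CPM in ST14high, against 108.8, 104.7, 96.3 and 108.5 CPM in ST14low. Apart from ST14high replicate 1 the 7 libraries lay within 96.3 to 108.8 CPM. Its log2 fold change was -0.11 (SE 0.14), and that of Ift140, the other IFT-A subunit, -0.01 (SE 0.15; 95% interval -0.34 to 0.33).

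Kif3a, the motor subunit of heterotrimeric kinesin-2 (chromosome 11, 53380881 to 53417746), had 68.5, 97.4, 99.1 and 96.4 CPM in ST14high, against 67.8, 53.5, 85.5 and 78.4 CPM in ST14low. ST14high replicates 2, 3 and 4 lay above all ST14low libraries, and ST14high replicate 1 lay among them. The log2 fold change was 0.34 (SE 0.18, edgeR adjusted p = 0.573). It was 0.22 without ST14low replicate 2 and 0.46 without ST14high replicate 1. Without ST14high replicate 1 Kif3a and Ccdc39 joined Rfx1 and Bbs9 among genes whose populations did not overlap, 10.8% of the ciliary genes beside 11.8% of all genes. Kif17 had 0.861 to 4.06 CPM in ST14high, against 1.85 to 4.28 CPM in ST14low.

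In the BBSome, Bbs9, a core subunit of the coat (NM_178415; chromosome 9, 22280159 to 22692724), had 25.8, 30.0, 27.5 and 28.1 CPM in ST14high, against 39.9, 37.5, 30.9 and 39.4 CPM in ST14low. Every ST14high library lay below every ST14low library, with ST14high replicate 2 and ST14low replicate 3, the shallowest library, almost touching. Its log2 fold change was -0.41 (SE 0.14), with an edgeR p of 0.0147 before and 0.396 after adjustment, and ran from -0.49 to -0.37 when each library was left out in turn.

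The other BBSome subunits had smaller fold changes. Bbs2 (chromosome 8, 96591854 to 96622711) had 35.2, 53.7, 69.9 and 66.1 CPM in ST14high, against 45.4, 45.3, 55.1 and 50.6 CPM in ST14low. The ST14high values enclosed those of ST14low, and the log2 fold change was 0.20 (SE 0.21). For Bbs1, Bbs4, Bbs5 and Bbs7 it lay between -0.11 and 0.26. ST14high replicate 1 was the lowest of the 8 libraries for Bbs1, Bbs2, Bbs4, Bbs5 and Bbs9.

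Of the ARF-like GTPases, Arl3 (chromosome 19, 46605599 to 46647575) had 38.9, 52.6, 75.5 and 73.6 CPM in ST14high, against 55.5, 66.3, 47.7 and 55.8 CPM in ST14low. ST14low lay within the range of ST14high, and the log2 fold change was 0.10 (SE 0.22). Arl13b, the ciliary membrane GTPase that activates Arl3 (chromosome 16, 62793515 to 62846866), had 55.4, 52.5, 55.5 and 68.4 CPM in ST14high, against 46.2, 36.2, 64.3 and 62.1 CPM in ST14low; the log2 fold change was 0.15 (SE 0.20).

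Tulp3, the adaptor that brings membrane receptors to the IFT-A complex (chromosome 6, 128271179 to 128305869), had 37.4, 52.0, 69.8 and 62.3 CPM in ST14high, against 63.0, 62.8, 49.2 and 57.1 CPM in ST14low. The log2 difference of -0.07 (SE 0.20) was 0.08 without ST14high replicate 1. Nphp4, a transition zone protein, had 6.19 to 12.3 CPM in ST14high, against 6.97 to 9.79 CPM in ST14low. In Arl3, Tulp3 and Nphp4, as in Foxj1, Bbs2 and Bbs5, the lowest library of ST14high was replicate 1 and the highest replicate 3.

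Turning to the axonemal dyneins, Dnah5, an outer arm heavy chain whose loss makes cilia immotile (chromosome 15, 28133521 to 28401800), had 28.0, 60.4, 83.2 and 45.6 CPM in ST14high, against 46.2, 27.2, 82.2 and 69.1 CPM in ST14low. The lowest and highest values of the populations nearly coincided. The log2 fold change was -0.04 (SE 0.38). Of the 4 dynein genes it had the most counts, 11378 over the 8 libraries, on a transcript of 15637 bases.

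Dnah11, a further outer arm heavy chain (chromosome 12, 119116455 to 119437516), had 7.14, 13.7, 11.9 and 15.9 CPM in ST14high, against 19.6, 9.17, 14.8 and 19.4 CPM in ST14low; the log2 fold change was -0.37 (SE 0.31, edgeR adjusted p = 0.714). It was -0.19 without ST14high replicate 1 and -0.57 without ST14low replicate 2. Its 3 highest values were those of ST14low replicates 1 and 4 and ST14high replicate 4. Dnali1, an inner arm light intermediate chain, had 4.04 to 8.34 CPM in ST14high, against 5.84 to 10.4 CPM in ST14low. Dnah9 had 0.685 to 1.43 CPM in ST14high, against 0.256 to 1.94 CPM in ST14low, too few reads to set the populations apart, with a 95% interval of the log2 fold change from -1.51 to 1.604.

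Of the genes for spokes, central pair, ruler and tektins, Ccdc39, which with Ccdc40 forms the ruler that spaces structures along the axoneme (chromosome 3, 33711283 to 33743232), had 18.4, 38.4, 35.2 and 32.1 CPM in ST14high, against 7.71, 10.8, 29.8 and 25.0 CPM in ST14low. ST14low replicates 1 and 2 were lowest, and the populations overlapped through ST14high replicate 1. The log2 fold change of 0.77, the largest of the 37 genes, had an SE of 0.42 (edgeR adjusted p = 0.581), and ran from 0.51 without ST14low replicate 1 to 1.09 without ST14low replicate 3 when each library was left out in turn. Ccdc39 shares 4274 bases of its span with Ttc14 on the opposite strand, and the strand setting of the counting is not given in the sources used here, so reads of these genes may not be separable. Ttc14 had 82.1, 142.3, 176.2 and 145.0 CPM in ST14high, against 34.0, 41.1, 127.9 and 85.2 CPM in ST14low, with a log2 fold change of 0.93 (SE 0.40, edgeR adjusted p = 0.511). Both genes were lowest in ST14low replicates 1 and 2, as was Rfx3, for which no overlapping gene was found. The same limit holds for 5 other ciliary genes whose span overlaps a gene on the opposite strand, Dnah11 (Cdca7l, 3521 counts), Dnali1 (Gnl2, 14420 counts over an overlap of 44 bases), Ift140 (Tmem204, 1646 counts), Arl13b (Stx19, 71 counts) and Ift74 (Lrrc19, 53 counts).

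The radial spoke head genes Rsph1 and Rsph4a had log2 fold changes of -0.14 (SE 0.35) and -0.11 (SE 0.44). Spag6, a central pair gene, had 5.62 to 9.32 CPM in ST14high, against 6.94 to 9.82 CPM in ST14low. The accession counted as Spag6 (NM_015773) bears the name of its close copy Spag6l in the current RefSeq table, so its reads may come from either gene. Tekt1 had 2.53 to 3.56 CPM in ST14high, against 2.16 to 5.41 CPM in ST14low, and Tekt4 0.758 to 1.27 CPM in ST14high, against 0 to 1.31 CPM in ST14low. None of these axonemal genes separated the populations.

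Single libraries stood out across the ciliary genes. ST14high replicate 1 held the lowest of the 8 values for 16 of the 37 genes (43.2%), beside 18.6% of all genes tested, and 12 of the 16 were transport genes. ST14low replicate 2 was lowest for 11 (29.7%), beside 22.15% of all genes. ST14high replicate 3 was highest for 13 genes (35.1%), beside 10.2% of all genes, and ST14low replicate 4 for 9 (24.3%), beside 5.0% of all genes. Of the 10 motile axoneme genes, ST14low replicate 4 held the highest value of 7. The libraries that stood low and those that stood high were thus found in both populations.

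Transcript length and GC content also moved with single libraries. Across 13601 genes, each library's deviation from the gene mean had a Spearman correlation with transcript length of -0.49 in ST14low replicate 2 and 0.35 in ST14low replicate 3, and with GC content of 0.27 and -0.38 in the same libraries. Across the 37 ciliary genes the values were -0.53 and 0.44 for length and 0.45 and -0.61 for GC content. Other libraries were less alike. In ST14low replicate 4 the correlation with GC content was -0.29 over all genes and -0.04 over the ciliary genes. In ST14high replicate 4 it was -0.14 over all genes and -0.39 over the ciliary genes. Genes of one library share its preparation, so these are descriptions, and their part in the values above was not tested.

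**Figure D4:**
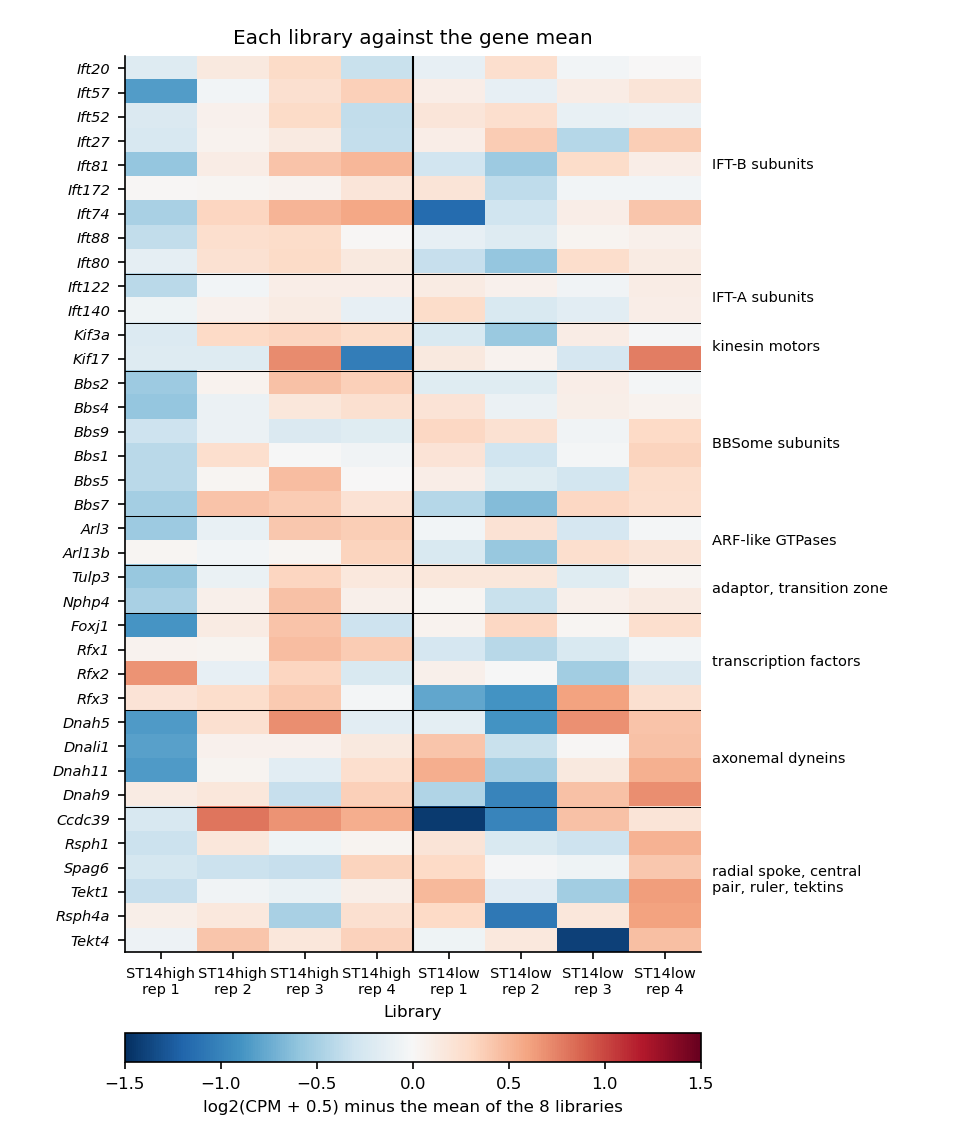
Deviation of log2(CPM + 0.5) from the mean of the 8 libraries for each ciliary gene (rows, by role) and library (columns, ST14high left of ST14low). The column of ST14high replicate 1 is mostly blue, with the lowest value of 16 genes, and that of ST14low replicate 4 is red over the motile axoneme genes, of which it holds the highest value in 7.

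Other genes of the cilium were counted from fixed lists. Of 39 further transport genes, 36 were tested and 0 passed in either direction in edgeR or DESeq2, with a median log2 fold change of -0.07. Dync2li1, a light intermediate chain of the return motor dynein-2, was the highest of them per length, at 78.3 ± 26.6 CPM in ST14high, against 92.4 ± 11.0 CPM in ST14low. Rab11a, a GTPase of recycling vesicles that feed the cilium, was at 136.5 ± 10.1 CPM in ST14high, against 143.5 ± 11.6 CPM in ST14low. The smallest unadjusted p values were those of Ttc30a1, an IFT-B component, with a log2 fold change of -0.53 (SE 0.30), and Unc119, the carrier of lipid-anchored proteins that Arl3 unloads, at -0.40 (SE 0.26).

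Of 35 transition zone and basal body genes all 35 were tested, 0 passed and the median log2 fold change was 0.10. Cep83 and Cep164, which dock the mother centriole to the membrane through its distal appendages, had the smallest p. Cep164 had 62.6, 64.4, 72.6 and 62.7 CPM in ST14high, against 51.8, 42.0, 59.7 and 54.7 CPM in ST14low, with no overlap and a log2 fold change of 0.33 (SE 0.14, edgeR adjusted p = 0.504). Cep83 was at 28.8 ± 6.14 CPM in ST14high, against 16.7 ± 6.08 CPM in ST14low; the log2 fold change was 0.80 (SE 0.28, edgeR adjusted p = 0.402). B9d1, the transition zone gene with the highest level per length in the list, had a log2 fold change of -0.60 (SE 0.26).

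Of 53 further motile cilium genes, 43 were tested and 0 passed in edgeR or DESeq2, with a median log2 fold change of -0.04. Their median level was 3.18 RPKM, close to the 3.38 RPKM of the 10 axonemal genes above. The populations did not overlap in 2 of the 43 with higher and 3 with lower values in ST14high. Together these were a larger share than the 6.42% of all genes, a difference that was not tested. Hydin, a central pair gene, was lower in every ST14high library but rested on 114 counts in all. Capsl and the radial spoke head gene Rsph9 were the highest per length, at 52.7 and 42.1 RPKM.

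The list drawn up for the program that makes cells multiciliated was mostly at few or 0 counts. Of its 13 genes in the files, Mcidas and Gmnc were at 0 counts in all 8 libraries. This allows up to 0.0708 CPM in the deepest library and 0.463 CPM in the shallowest (3 counts, counting error only). Ccno had 41 counts and Myb 55 counts over the 8 libraries and fell under the filter. Of the 6 tested genes 0 passed. E2f4 and E2f5, cell cycle factors that multiciliated cells also use, were at 45.9 ± 2.95 and 33.3 ± 5.08 CPM in ST14high, against at 39.1 ± 3.62 and 33.7 ± 3.83 CPM in ST14low, and Ccdc78 had 104 counts in all. Foxj1 was thus measured at a high level beside a low level of axonemal genes and 0 counts of Mcidas and Gmnc.

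Hedgehog signalling, which in vertebrates runs through the primary cilium, was the list with the largest single fold changes. The median of the list was 0.34, and 0.17 without ST14high replicate 1. Of 16 genes 14 were tested and 0 passed in edgeR, while DESeq2 called 4, all with higher values in ST14high, where it called 1.72% of all genes. The 4 were Gas1 and Boc, surface co-receptors of Hedgehog ligands, and Gli1 and Gli2, its transcription factors. Gas1 had 153.5, 31.1, 44.7 and 41.5 CPM in ST14high, against 13.7, 9.84, 15.6 and 12.6 CPM in ST14low; the log2 fold change was 2.39 (SE 0.48, edgeR adjusted p = 0.192, DESeq2 adjusted p = 5.6e-05). Every ST14high library lay above every ST14low library, and ST14high replicate 1 was the highest.

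Gli2 had 6.82, 1.23, 1.75 and 2.82 CPM in ST14high, against 0.256, 0.103, 0.154 and 0.532 CPM in ST14low; the log2 fold change was 3.47 (SE 0.79, edgeR adjusted p = 0.202). Gli1 and Gli2 were at low counts, 298 and 334 over the 8 libraries. Without ST14high replicate 1 the DESeq2 adjusted p was 0.149 for Gli1 and 0.0534 for Gli2, and 0.0227 for Boc and 3.2e-08 for Gas1, with DESeq2 log2 fold changes of 2.36, 2.78, 1.61 and 1.59 for these genes in that order. Smo and Ptch1, the signal transducer and the receptor of the pathway, were close between populations. Smo was at 112.8 ± 12.3 CPM in ST14high, against 126.5 ± 5.54 CPM in ST14low (log2 fold change -0.17, SE 0.12). Ptch1 was at 95.8 ± 10.3 CPM in ST14high, against 92.5 ± 15.6 CPM in ST14low, a difference of 0.05 on the log2 scale (SE 0.15).

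Markers of some other cells also had higher values in ST14high. The summed stellate cell, fibroblast and smooth muscle markers were highest in ST14high replicate 1, at 3292.4 CPM, and were 818.4, 729.3 and 1117.3 CPM in ST14high replicates 2 to 4, against at most 662.4 CPM in ST14low. Of those 14 markers 12 had a fold change above 0, as did all 8 tested mesothelial markers, and none of these markers was at 0 counts. The median log2 fold change was 2.33 over the 14 markers and 3.36 over the 8 tested mesothelial markers. Shh and Ihh, both ligands, were at 129.5 and 54.8 CPM in ST14high replicate 1, the library with 10883.6 CPM of acinar markers. Shh did not exceed 4.54 CPM elsewhere. The part of these cells in the Hedgehog values was not tested.

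**Figure D5:**
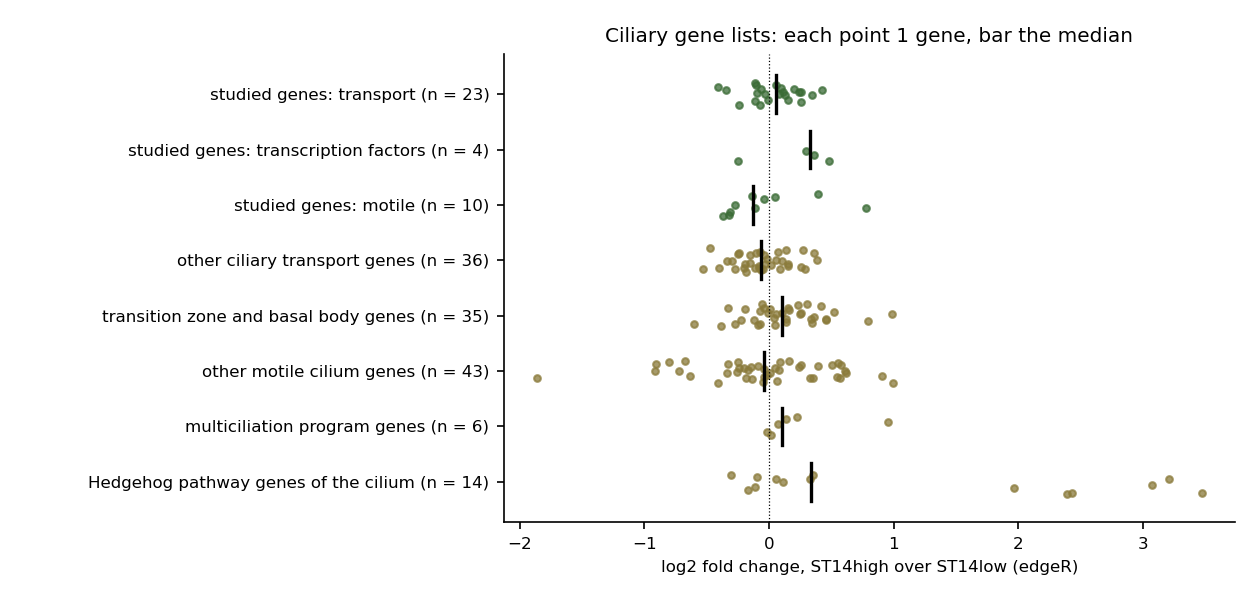
Log2 fold change, ST14high over ST14low, of each tested gene in the ciliary lists, with the median of each list as a bar. The 37 genes described (green) and the further ciliary lists have medians from -0.12 to 0.33. The Hedgehog list has a median of 0.34, and in it a group of genes reaches from 1.96 (Ihh) to 3.47 (Gli2).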

How the data were processed

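The submitters' processing notes name Bowtie 1.0.0, CASAVA 1.8.2 and the build mm9. How reads were counted, with which annotation and whether by strand, is not given in the sources used here. Each RefSeq transcript has a raw count and an RPKM value, per the file headers; the counts are whole numbers deposited without normalization, and the RPKM values, deposited by the authors, are scaled by length and library size. RPKM served to compare levels between genes and entered no test.

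For the 3507 symbols with several transcripts, 5 of them ciliary genes, the one with most reads was kept. The test was that of edgeR 4.0.16 under R 4.3.3 (quasi-likelihood, TMM factors, filterByExpr, population as the only term, two-sided, Benjamini-Hochberg over 13749 genes, threshold 0.05). CPM (counts per 1000000) use TMM-scaled library sizes. The common biological coefficient of variation was 38.4%. DESeq2 1.42.0 and limma 3.58.1 served as other tools. GC content and length came from GENCODE M21 transcripts. Plots used matplotlib 3.10.9 in Python 3.11.15.

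Values per library are given for ciliary genes past the threshold, of highest RPKM or smallest p in their role, or without overlap between populations; and in each further list the 2 genes of smallest p and the 2 of highest RPKM were named. Gli1, Boc, Shh, Ihh, Ttc14 and the genes of the multiciliation list at low counts were named after their values were seen. The results of 2 further genes of the rule are not reported here. The members and the lists were chosen with earlier results of these data known. Limits for 0 counts cover counting error only; intervals of fold changes come from edgeR and cover the spread between libraries. Marker lists of endothelium, lymphocytes, hepatocytes and neural cells were also summed, at 21.5 to 1060.1, 0 to 14.7, 4845.3 to 12279.9 and 6.61 to 17.4 CPM in ST14high and 292.0 to 1237.3, 8.57 to 33.4, 7637.8 to 14253.8 and 5.89 to 13.7 CPM in ST14low.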

Additional observations from a re-analysis of the deposited data

Results flagged for a closer look

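In 3 of the 74 groups of 4 libraries examined, 1 library of a ciliary gene stood far from the other 3 of its population, where chance flags about 1 in 20 groups, here 3.7. Kif3a was at 68.5 CPM in ST14high replicate 1 and at 96.4 to 99.1 CPM in the other ST14high libraries. Dnali1 was at 4.04 CPM in ST14high replicate 1 and at 7.84 to 8.34 CPM in the others of that population. Spag6 was at 9.32 CPM in ST14high replicate 4 and at 5.62 to 6.00 CPM in the others.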

How the results depend on the processing

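Under 18 other settings 0 of the 37 ciliary genes passed the threshold. Over all genes the count of 0 became 234 with DESeq2, 283 with DESeq2 without ST14high replicate 1, 1 without ST14high replicate 1 and ST14low replicate 2 together, and 2 with the replicate number as a block; the fits that left out ST14high replicate 1 with another change were chosen after seeing the data. Same-numbered libraries deviated together with correlations of 0.05, 0.05, -0.13 and 0.01. Differently numbered libraries ranged from -0.196 (ST14high replicate 1 with ST14low replicate 4) to 0.238 (ST14high replicate 3 with ST14low replicate 4). The numbers were therefore not taken as pairs, and the block called 0 of the ciliary genes. Ciliary genes whose populations did not overlap numbered 1 with upper-quartile factors, 2 to 4 when each library was left out in turn and 4 without ST14high replicate 1 and ST14low replicate 2; without ST14high replicate 1 the share was 10.8% of the ciliary genes and 11.8% of all genes. The median log2 fold change ran from -0.10 to 0.13 over the 37 genes when each library was left out. It ran from -0.10 to 0.14 over the transport genes and from -0.35 to 0.07 over the motile genes. The spread of the list medians between single libraries was 0.22, 0.21 and 0.34. Leaving out a library moves a group mean by only part of that library's deviation, so these spreads cannot judge the shifts. Of 14 genes given by library, 9 kept their direction and side of the threshold throughout. Those that changed sign all had a reported fold change within its standard error of 0. Ift20 ran from -0.16 to 0.06 with each library left out, and was 0.10 with voom, 0.01 (0.0083) with DESeq2 without ST14high replicate 1 and 0.11 without the pair of libraries. Arl3 ran from -0.0492 to 0.25 (0.3335 without the pair) and Arl13b from 0.00 (-0.0027) to 0.26, with -0.0224 for Arl13b with voom. Tulp3 ran from -0.21 to 0.08, and was 0.0608 with DESeq2 without ST14high replicate 1 and 0.11 without the pair. Dnah5 ran from -0.33 to 0.19 and was 0.155 with DESeq2 without ST14high replicate 1. Bbs2 ran from 0.06 to 0.37 and Ift122 from -0.18 to -0.01 with each library left out. The cause of these changes was not tested. Depth limits Dnah9, Tekt4 and Kif17, at 216, 205 and 538 counts, and ST14low replicate 3, where 3 counts equal 0.463 CPM.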
